A study of Homo sapiens with 17 samples.

Results

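Histone methyltransferases, histone demethylases, class I to IV histone deacetylases (HDACs) and sirtuins write and erase the methyl and acetyl marks of chromatin. Their genes were taken from the count table by symbol: names that begin with KMT2, KMT5, KDM, SETD, NSD, EHMT, SUV39H or PRMT and a number, the Polycomb repressive complex 2 (PRC2) core genes EZH1, EZH2, EED and SUZ12, DOT1L, SETDB1 and SETDB2, HDAC2 to HDAC11 and SIRT1 to SIRT7, without the Y-linked KDM5D. This gave 75 members of the 19141 genes in the table, of which 72 passed the filter on low counts in the 14-library fit that covered 14491 genes. A fit of 17 libraries, used for 10 h, tested 73 members among 16521 genes. KDM4E and KDM4F passed neither filter, and PRMT8 passed the second filter alone.

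The RNA came from YB5 cells, a derivative of the human colon cancer line SW48 in which a GFP gene under a cytomegalovirus promoter sits silenced at a single insertion. All libraries are of this line and carry the transgene. The cells received 250 nM toyocamycin, an adenosine analog, or the vehicle DMSO, and polyA RNA was sequenced from both ends. Each arm had 2 libraries at 2 h, 1 library at 24 h and 1 library at 48 h, and 3 libraries at 72 h, while 10 h had 1 DMSO and 2 toyocamycin libraries. For the last time the labels write 72 h, which is used here, while the paper has 96 h. Replicate 2 of 2 h and of 10 h formed batch 2 in both arms, and the other libraries formed batch 1, so all 72 h libraries shared 1 batch.

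Library totals of gene-assigned reads ran from 8735465 (toyocamycin at 10 h, replicate 2) to 22121364. Of the 10 markers of colon epithelium, EPCAM had 5452 to 7584 reads and KRT8 17822 to 100954 reads in every DMSO library, CDX2 1319 to 7284 reads, and CDX1, KRT20 and LGALS4 stood at no more than 5 reads there. The reads of 7 markers of blood, mesenchymal, endothelial and liver cells summed to 11 to 206 per library in DMSO and 15 to 179 on toyocamycin. At 72 h these sums were 27, 11 and 14 in DMSO and 35, 179 and 85 on toyocamycin, and 4 of the 5 such markers that could be tested were called higher. Of the 8 epithelial markers tested at 72 h, 5 were lower (among them KRT8 at -3.97 and CDH1 at -3.47 on the log2 scale) and 3 were higher (CDX2 at 0.61, CDH17 at 2.93 and the low-count LGALS4). Mitochondrially encoded genes took 1.42% and 3.47% of the reads in DMSO and 1.77% and 2.65% on toyocamycin at 2 h, with the higher share of each arm in batch 2. At 10 h their share was 2.82% in DMSO against 3.30% and 6.55% on toyocamycin. The single libraries at 24 h held 1.46% against 3.49%, those at 48 h 1.40% against 3.29%, and by 72 h the ranges were 0.917% to 1.49% against 1.46% to 1.85%. The part of these markers and shares in the results below was not tested. Replicate 2 of toyocamycin at 10 h held reads in genes that were at or near 0 elsewhere at 10 h, with 44 reads of HDAC9, 18 of PRMT8, 8 of KDM4F and 10 of CDX1. In bulk libraries, fewer cells of a type and less RNA per cell cannot be told apart.

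Methyltransferases use S-adenosylmethionine to place methyl groups on lysines or arginines of histones, and the position decides the reading: methylation of histone H3 at lysine 4 (H3K4) or lysine 36 (H3K36) marks active genes, while that of lysine 9 (H3K9) or lysine 27 (H3K27) marks silent chromatin. Demethylases of the KDM1 and Jumonji families remove these groups. Zinc-dependent HDACs and NAD-dependent sirtuins remove acetyl groups, and HDAC inhibitors are known to reactivate silenced genes in cancer cells.

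The first question was how these genes stood in toyocamycin-treated against DMSO-treated cells at each time. After 2 h, 19 of the 72 tested members were lower and 0 were higher. Among all genes tested, 8.42% were called lower and 0.518% higher. A call is an adjusted p under 0.1 in edgeR's quasi-likelihood test, and at an unadjusted p under 0.05 the members numbered 25 lower and 0 higher. The DESeq2 Wald test also called 0 members higher. The median log2 fold change was -0.18 over the members and 0.02 over all genes. Lower members included the H3K27 demethylases KDM6A and KDM6B, the deacetylase SIRT1, the H3K4 demethylases KDM5A and KDM5B and the PRC2 subunit EED. A minimum fold change of 1.5 in the test left 6 members called lower. Library sizes set by the 13 genes of the mitochondrial genome, called mitochondrial scaling from here on, left 1 call, with a median log2 fold change of -0.33 over the members and -0.06 over all genes. With batch as a block, which at 2 h equals the replicate number, 20 were lower and 0 higher.

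At 10 h, 41 members were called lower and 4 higher, against 24.4% and 20.4% of all genes. The members' median log2 fold change was -0.93 and that of all genes was 0.42. Where only genes with at least 10 counts in every library were kept, these medians were -0.83 and -0.08. Under that filter 39 of 64 members and 3476 of 10112 genes were called lower. The 4 higher members were PRMT1 (1.14), HDAC3 (0.53), SETD9 (1.06) and HDAC9, and the call of HDAC9 rested on the 44 reads of replicate 2 of toyocamycin, since replicate 1 and the DMSO library had 0. Under mitochondrial scaling PRMT1 stood at 0.04, SETD9 at -0.09 and HDAC3 at -0.59, and the call of HDAC3 was lost without replicate 1 of toyocamycin (edgeR adjusted p = 0.164). The lone DMSO library belonged to batch 2 and was assumed to vary like the other groups. Within batch 2, 40 members were lower and 3 higher by more than 2-fold, and replicate 1 of toyocamycin, from batch 1, had 34 lower and 2 higher against that same DMSO library. Replicate 2 stood apart from replicate 1 (Pearson r of log2 CPM 0.916, against 0.982 or more between replicates of 72 h), and the test called 48 members lower and 4 higher without replicate 1, and 40 lower and 5 higher without replicate 2. The genes called higher moved more, from 3375 of 16521 to 6447 of 16500 without replicate 1 and 6239 of 16521 with a batch term. The median of all genes became 0.30 without replicate 1 and 0 without replicate 2, where that of the members was -1.05 and -0.80. Members took 0.255% and 0.274% of the counted reads in the 2 toyocamycin libraries of 10 h, and 0.547% to 0.588% in the DMSO libraries of the whole course.

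Single libraries stood for 24 h and 48 h, so no test was made. At 24 h, 25 members were lower and 9 higher by more than 2-fold, where 26.4% of all genes were lower and 27.5% higher. At 48 h, the numbers were 29 lower and 13 higher, against 29.4% and 36.8%. Scaling by library size alone gave 50 lower and 2 higher members at 24 h and 39 lower and 7 higher at 48 h. Mitochondrial scaling gave 65 and 0 at 24 h and 56 and 3 at 48 h, and DESeq2's size factors gave 23 and 16 at 48 h.

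By 72 h the members had split into 39 lower and 26 higher, and 7 were not called (KMT2A, KMT5A, KDM5B, KDM5C, KDM7A, HDAC5 and SIRT7). Of all genes, 41.9% were lower and 47.0% higher. The median log2 fold change was -0.46 for members and 0.18 for all genes. Scaling moved these values: DESeq2's size factors gave 35 lower and 30 higher members with all genes at a median of 0.50, library size alone gave 46 and 19 with all genes at -0.42, and mitochondrial scaling gave 46 and 11 with all genes at -0.89. The members' median lay 0.61 to 0.64 below that of all genes under each of these scalings, and the choice of genes and libraries moved this gap further. It was 0.03 where only genes with at least 10 counts in every library were kept, 0.93 in the fit of all 17 libraries and 1.16 with no filter on low counts. Of the 39 members called lower, 38 were negative in all 4 scalings (PRMT7 was not) and 35 were called in all 4. Of the 26 called higher, 17 were positive and 11 were called in all 4, namely KDM6B, KDM4D, KMT2E, SIRT1, SETD4, SETDB2, SIRT6, KDM6A, PRMT6 and the low-count HDAC9 and HDAC10.

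**Figure D1:**
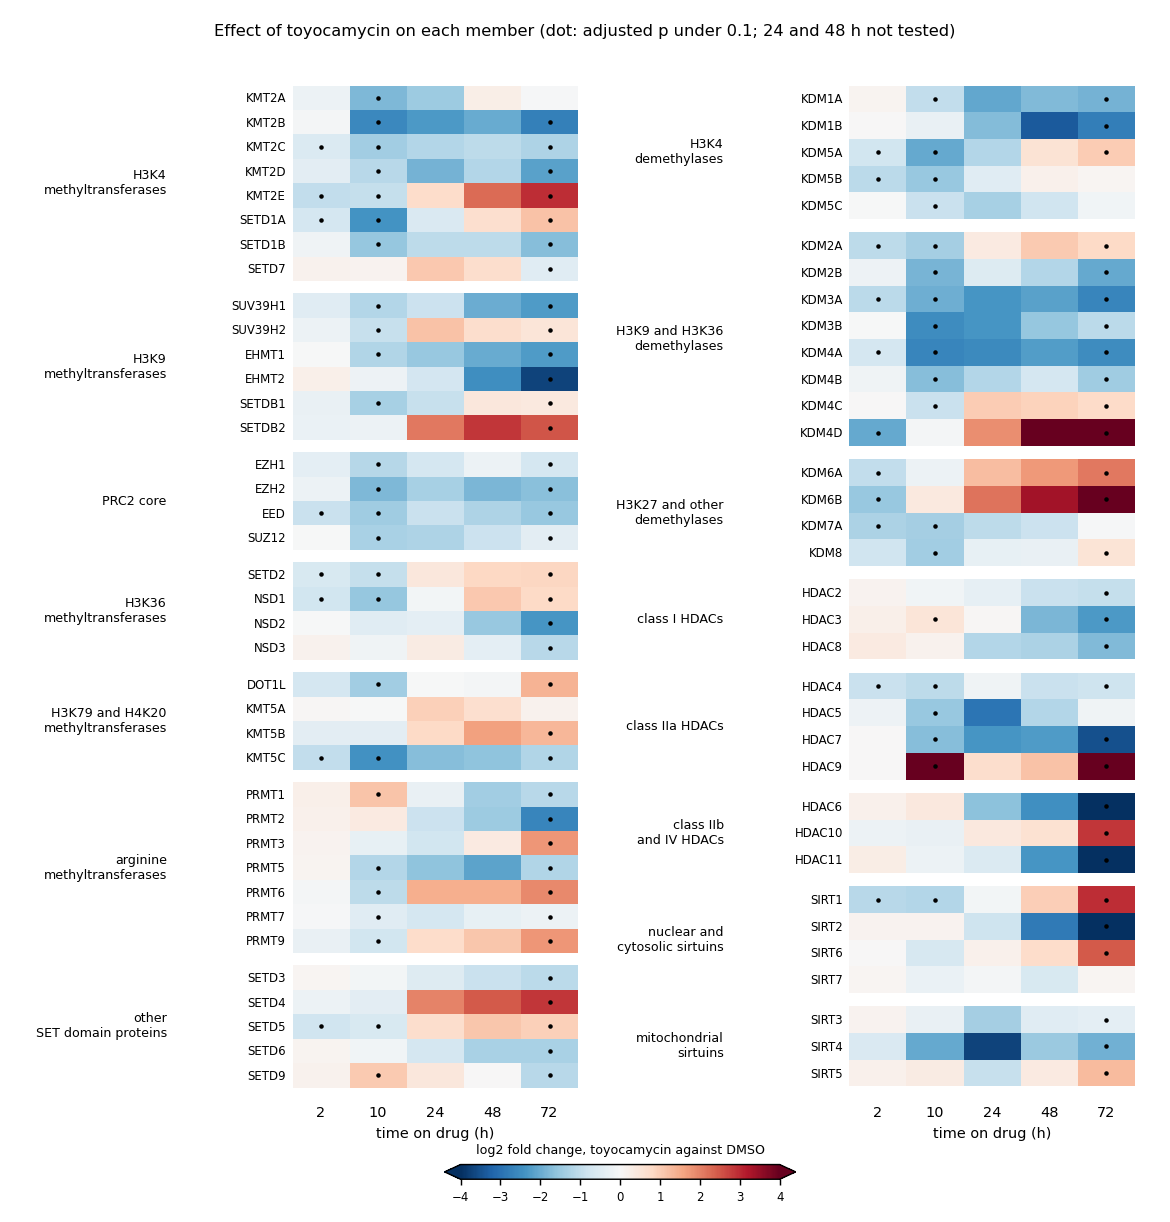
Log2 fold change of toyocamycin against DMSO (colour, cut at -4 and 4) for the 72 members tested at 72 h, grouped by role, at each time in hours; a dot marks an adjusted p under 0.1, and 24 and 48 h have 1 library per arm and no test. The 2 h column holds 19 dots, all on lower members, and the 72 h column holds both the lowest (HDAC6, -5.19) and the highest values (the low-count HDAC9, 6.81, then KDM6B, 5.93).

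The DMSO libraries showed how far the members moved without the compound. In DMSO, 5 members were lower and 10 higher at 72 h than at 2 h, against 11.4% and 10.2% of all genes. KDM3A rose by 0.88 (edgeR adjusted p = 0.00650), HDAC2 by 0.74 (adjusted p = 0.0105) and DOT1L by 0.74 (adjusted p = 0.0709) on the log2 scale, and KDM4D fell by 1.28 (adjusted p = 0.0198). All DMSO libraries of 72 h were of batch 1 and 1 of the 2 DMSO libraries of 2 h was of batch 2. Library size alone gave 12 lower and 3 higher, and with a minimum fold change of 1.5, 0 members were called in either direction. Without replicate 2 of DMSO at 2 h, 1 was lower and 5 higher, and without replicate 1 or replicate 2 of DMSO at 72 h, 2 were lower and 5 higher.

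The effect itself changed with time in most members. The effect at 72 h was lower than that at 2 h in 33 members and higher in 27, against 38.1% and 38.0% of all genes (8 higher and 34 lower under mitochondrial scaling). The 2 h and 72 h calls together sorted the 72 tested members into 11 that were lower at 2 h and higher at 72 h, 6 that were lower at both times, 2 that were lower at 2 h alone, 33 lower and 15 higher at 72 h alone, and 5 without a call. How often genes outside the members followed such joint patterns, or the signs given below, was not computed. Nothing particular to the members is therefore read from these counts. Under mitochondrial scaling 5 of the first 11 (SETD2, NSD1, SETD5, KDM5A and KDM2A) had a negative value at 72 h. At times that this sorting did not use, 10 of these 11 had a negative log2 fold change at 10 h, 4 at 24 h and 0 at 48 h. Of the 15 members higher at 72 h alone, 13 were negative at the first of these times, 5 at the next and 2 at the last. Of the 33 members lower at 72 h alone, 25 were negative at 10 h, 29 at 24 h and 31 at 48 h. All these signs were taken under 1 scaling of the libraries (TMM) and were not counted under the others. The median of all tested members was -0.65 at 24 h and -0.68 at 48 h under TMM. Under mitochondrial scaling it was -2.91 and -2.46, so the time at which signs turned depends on the scaling.

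**Figure D2:**
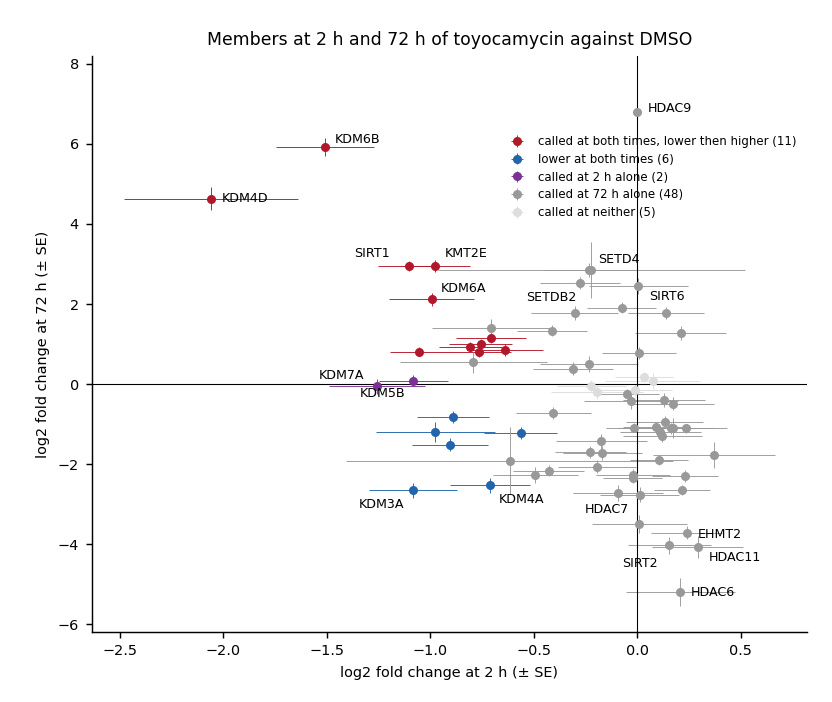
Log2 fold change of toyocamycin against DMSO at 2 h (horizontal) and 72 h (vertical) with standard errors, for the 72 tested members, coloured by their calls at both times. The 11 members in red lie left of 0 and above 0 (5 of them below 0 at 72 h under mitochondrial scaling), with KDM6B at -1.51 and 5.93, while HDAC6 and EHMT2, at -5.19 and -3.71 at 72 h, lie right of 0 at 2 h.

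Among the H3K4 methyltransferases, most of which are catalytic centres of the COMPASS complexes, 3 of 8 were lower at 2 h, 7 of 8 were lower at 10 h, and 5 were lower and 2 higher at 72 h. Counts in this list and those below stand beside the shares of all genes. These were 8.42% lower at 2 h, 24.4% lower at 10 h, and 41.9% lower and 47.0% higher at 72 h. The lists are short, and no list was tested as a set. KMT2E, a relative with a SET domain for which H3K4 methylation is disputed, had 45.3 and 54.01 CPM (counts scaled to a common library size by TMM) in the DMSO libraries and 25.9 and 24.6 CPM in the toyocamycin libraries at 2 h (log2 fold change -0.98, SE 0.17, edgeR adjusted p = 0.00174). At 72 h it had 42.3, 38.98 and 52.2 CPM in DMSO and 366, 330.1 and 331 CPM on toyocamycin (log2 fold change 2.94, SE 0.14, edgeR adjusted p = 3.41e-11). The groups did not overlap at either time, and the direction turned between them. SETD1A, a catalytic subunit that places most H3K4 trimethylation, showed the same turn, from 107 and 101 CPM in DMSO against 68.1 and 58.8 CPM at 2 h (log2 fold change -0.71, SE 0.17, edgeR adjusted p = 0.0161) to 90.7, 89.2 and 71.9 CPM against 162, 193 and 208 CPM at 72 h (log2 fold change 1.16, SE 0.14, edgeR adjusted p = 1.05e-06). The 2 h call of SETD1A was lost without replicate 2 of toyocamycin (adjusted p = 0.162), and its 72 h rise was 0.06 under mitochondrial scaling. Its paralog SETD1B had 96.5, 82.2 and 68.3 CPM in DMSO and 20.8, 26.5 and 27.7 CPM on toyocamycin at 72 h (log2 fold change -1.72, SE 0.17, edgeR adjusted p = 9.71e-08).

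KMT2C, an H3K4 monomethyltransferase of enhancers, was lower at both times. Its levels at 2 h were 56.2 and 63.8 CPM in DMSO and 45.6 and 35.6 CPM on toyocamycin (log2 fold change -0.56, SE 0.17, edgeR adjusted p = 0.0721), a call that was lost without replicate 2 of DMSO (adjusted p = 0.279) or replicate 2 of toyocamycin (adjusted p = 0.418). The largest fall of the list at 72 h was that of KMT2B, with 180.3, 178 and 136 CPM in DMSO and 20.1, 24.7 and 29.8 CPM on toyocamycin (log2 fold change -2.73, SE 0.19, edgeR adjusted p = 2.68e-09). KMT2B did not pass the test at 2 h (-0.09), was at -2.57 at 10 h and stayed at -2.28 and -2.01 in the single libraries of 24 and 48 h. KMT2D changed by -2.16, KMT2C by -1.23 and SETD7 by -0.49 at 72 h, whereas KMT2A stood at -0.04 after -1.79 at 10 h.

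The 6 H3K9 methyltransferases, enzymes of silent chromatin, lay between -0.49 (SUV39H1) and 0.24 (EHMT2) at 2 h without a call (0 of 6 in edgeR, where 1 had an unadjusted p under 0.05, and 0 by the DESeq2 Wald test), and 3 were lower and 3 higher at 72 h. EHMT2, also named G9a, which places H3K9 mono- and dimethylation in euchromatin, had 175, 179 and 134 CPM in DMSO and 11.9, 13.3 and 12.1 CPM on toyocamycin at 72 h (log2 fold change -3.71, SE 0.16, edgeR adjusted p = 1.11e-11). At 2 h and 10 h its effect was 0.24 and -0.22, neither of them called, and the single libraries gave -0.73 at 24 h and -2.47 at 48 h. EHMT1, its partner in a heterodimer, was at -2.28. SUV39H1, which trimethylates H3K9 in pericentric heterochromatin, had 22.2, 20.7 and 16.97 CPM in DMSO and 3.15, 4.31 and 4.91 CPM on toyocamycin (log2 fold change -2.27, SE 0.19, edgeR adjusted p = 2.43e-08). Its paralog SUV39H2 had 13.1, 13.2 and 15.6 CPM and 18.1, 16.03 and 25.2 CPM (log2 fold change 0.50, SE 0.20, edgeR adjusted p = 0.0250), which turned to -0.10 by library size and -0.53 under mitochondrial scaling, and was not called without replicate 3 of toyocamycin (adjusted p = 0.183). SETDB2, a SETDB1 relative, gave the largest rise of the list, from 8.11, 7.79 and 10.2 CPM to 52.5, 50.1 and 47.3 CPM (log2 fold change 2.52, SE 0.15, edgeR adjusted p = 4.16e-10). The single libraries of 24 h gave 2.12 for SETDB2 under TMM, while mitochondrial scaling put 0 members past 2-fold higher at that time. SETDB1, the KRAB zinc finger corepressor enzyme, was at 0.38, or -0.22 by library size and -0.68 under mitochondrial scaling.

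All 4 core subunits of PRC2, the H3K27 methyltransferase complex, were lower at 10 h and at 72 h, where 24.4% and 41.9% of all genes were lower. EED, the subunit that reads H3K27 trimethylation, had 26.04 and 21.05 CPM in DMSO and 12.2 and 12.9 CPM on toyocamycin at 2 h (log2 fold change -0.90, SE 0.19, edgeR adjusted p = 0.00603) and was the list's lone call at that time. EZH2, the catalytic subunit of proliferating cells, had 53.8, 59.2 and 72.4 CPM in DMSO and 19.3, 17.2 and 21.02 CPM on toyocamycin at 72 h (log2 fold change -1.69, SE 0.15, edgeR adjusted p = 2.91e-08), the largest fall of the 4. The effects at 72 h were -1.51 for EED, -0.72 for EZH1 and -0.43 for SUZ12, and that of SUZ12 was -0.10, without a call, by DESeq2's size factors. Those at 10 h lay between -1.81 and -1.14.

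The 4 H3K36 methyltransferases divided evenly. SETD2, the H3K36 trimethylase that travels with RNA polymerase II, had 35.4 and 46.00 CPM in DMSO and 24.1 and 28.2 CPM on toyocamycin at 2 h (log2 fold change -0.64, SE 0.18, edgeR adjusted p = 0.0503). This call was lost without replicate 2 of DMSO (adjusted p = 0.320) or replicate 1 of toyocamycin (adjusted p = 0.279). At 72 h, SETD2 stood at 39.1, 36.4 and 50.3 CPM against 76.5, 76.9 and 74.1 CPM (log2 fold change 0.85, SE 0.15, edgeR adjusted p = 7.00e-05). NSD1, which places H3K36 dimethylation, went from 145 and 177 CPM in DMSO against 101 and 88.9 CPM at 2 h (log2 fold change -0.76, SE 0.15, edgeR adjusted p = 0.00524) to 141, 122 and 140.4 CPM against 240.2, 229 and 239 CPM at 72 h (log2 fold change 0.81, SE 0.12, edgeR adjusted p = 1.80e-05). Both 72 h rises reversed under mitochondrial scaling, to -0.20 for SETD2 and -0.26 for NSD1. NSD2, a paralog of NSD1, was not called at 2 h (-0.02) and had 191, 183 and 184 CPM in DMSO and 39.03, 32.2 and 37.9 CPM on toyocamycin at 72 h (log2 fold change -2.36, SE 0.12, edgeR adjusted p = 8.00e-11). NSD3 followed at -1.10.

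DOT1L, the H3K79 methyltransferase, had 122, 105 and 75.8 CPM in DMSO and 217, 274 and 306 CPM on toyocamycin at 72 h (log2 fold change 1.39, SE 0.23, edgeR adjusted p = 4.21e-05), or 0.26 under mitochondrial scaling. Of the H4K20 enzymes, KMT5C was lower at 2 h, with 18.4 and 11.9 CPM in DMSO and 8.98 and 6.41 CPM on toyocamycin (log2 fold change -0.97, SE 0.29, edgeR adjusted p = 0.0541). Without replicate 1 of DMSO its adjusted p was 0.315, and without replicate 2 of toyocamycin it was 0.340. KMT5C remained lower at 72 h, at 13.2, 14.9 and 8.95 CPM against 4.93, 4.41 and 6.75 CPM (log2 fold change -1.20, SE 0.25, edgeR adjusted p = 4.23e-04). Its paralog KMT5B moved the other way, from 35.4, 36.8 and 43.6 CPM to 110.5, 92.9 and 89.6 CPM (log2 fold change 1.34, SE 0.14, edgeR adjusted p = 2.75e-07; 0.29 under mitochondrial scaling). KMT5A, which monomethylates H4K20 around mitosis, was not called at 72 h (0.18).

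The 7 arginine methyltransferases of the 14-library fit lay between -0.30 (PRMT9) and 0.23 (PRMT1) at 2 h, and 4 were lower and 3 higher at 72 h. PRMT2, a weak arginine methyltransferase, had 64.8, 68.97 and 68.4 CPM in DMSO and 10.7, 10.4 and 11.4 CPM on toyocamycin (log2 fold change -2.63, SE 0.12, edgeR adjusted p = 2.66e-11). PRMT6, which methylates arginine 2 of histone H3, rose from 40.3, 38.8 and 36.8 CPM to 141, 156 and 139 CPM (log2 fold change 1.91, SE 0.14, edgeR adjusted p = 2.94e-09) after a fall of the same gene at 10 h (-1.04). PRMT7 passed at -0.25, which DESeq2's size factors turned to 0.07. PRMT1, the main enzyme of asymmetric dimethylation, was higher at 10 h and lower at 72 h (-1.10), and PRMT5, that of symmetric dimethylation, was lower at both times (-1.16 and -1.21). PRMT3 and PRMT9 were higher at 72 h (1.77 and 1.78).

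Other SET domain proteins included SETD5, which had 80.8 and 88.7 CPM in DMSO and 49.97 and 47.02 CPM on toyocamycin at 2 h (log2 fold change -0.81, SE 0.15, edgeR adjusted p = 0.00343) and 81.4, 80.3 and 96.8 CPM against 167, 152 and 177 CPM at 72 h (log2 fold change 0.94, SE 0.12, edgeR adjusted p = 3.48e-06). The late rise of SETD5 reversed to -0.11 under mitochondrial scaling. SETD4 gave the largest rise of this list, from 10.9, 13.97 and 14.9 CPM to 97.3, 97.96 and 91.98 CPM (log2 fold change 2.85, SE 0.18, edgeR adjusted p = 5.34e-10). The largest fall was that of SETD6, which methylates the NF-kB subunit RelA, from 52.4, 51.1 and 43.2 CPM to 20.3, 20.2 and 19.6 CPM (log2 fold change -1.29, SE 0.16, edgeR adjusted p = 2.22e-06). SETD3, the actin histidine methyltransferase, was at -1.07 and SETD9 at -1.10.

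Demethylases of H3K4 comprise the flavin-dependent KDM1A and KDM1B and the Jumonji enzymes KDM5A to KDM5C. KDM5A had 41.7 and 46.6 CPM in DMSO and 25.96 and 26.3 CPM on toyocamycin at 2 h (log2 fold change -0.76, SE 0.15, edgeR adjusted p = 0.00542), and 48.8, 48.7 and 54.1 CPM against 111, 91.8 and 103 CPM at 72 h (log2 fold change 1.01, SE 0.12, edgeR adjusted p = 1.42e-06; -0.04 under mitochondrial scaling). KDM5B, its paralog, fell at 2 h from 29.4 and 33.7 CPM to 15.4 and 14.4 CPM (log2 fold change -1.08, SE 0.17, edgeR adjusted p = 6.76e-04) and was not called at 72 h, where its 6 libraries overlapped (0.09). KDM1B, a demethylase of gene bodies, had 35.4, 31.6 and 42.8 CPM in DMSO and 4.93, 5.34 and 5.87 CPM on toyocamycin at 72 h (log2 fold change -2.76, SE 0.18, edgeR adjusted p = 1.03e-09), while KDM1A, also named LSD1, was at -1.90. Both KDM1 genes were near 0 at 2 h (0.01 and 0.11).

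Of the 8 tested demethylases of H3K9 and H3K36, 4 were lower at 2 h and 7 at 10 h, and at 72 h 5 were lower and 3 higher. KDM2A, an H3K36 demethylase that binds unmethylated CpG islands, had 119 and 129 CPM in DMSO and 61.9 and 57.2 CPM on toyocamycin at 2 h (log2 fold change -1.05, SE 0.14, edgeR adjusted p = 1.98e-04) and 130.1, 121 and 118 CPM against 211, 215 and 219 CPM at 72 h (log2 fold change 0.81, SE 0.11, edgeR adjusted p = 6.33e-06; -0.28 under mitochondrial scaling). Its paralog KDM2B, which recruits Polycomb complexes to such islands, was at 110.4, 113 and 93.3 CPM and 19.8, 25.9 and 30.3 CPM (log2 fold change -2.06, SE 0.16, edgeR adjusted p = 8.93e-09). KDM3A, an H3K9 demethylase induced by hypoxia, was lower at 2 h, with 38.97 and 46.96 CPM in DMSO and 20.5 and 19.98 CPM on toyocamycin (log2 fold change -1.08, SE 0.21, edgeR adjusted p = 0.00449), and at 72 h, with 65.2, 80.97 and 91.7 CPM and 12.02, 9.84 and 15.9 CPM (log2 fold change -2.65, SE 0.19, edgeR adjusted p = 2.32e-09). The DMSO level of KDM3A was itself higher at 72 h than at 2 h, as given above.

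KDM4A, a demethylase of trimethylated H3K9 and H3K36, had 22.97 and 20.1 CPM in DMSO and 11.1 and 15.3 CPM on toyocamycin at 2 h (log2 fold change -0.71, SE 0.19, edgeR adjusted p = 0.0366), a call lost without replicate 1 of DMSO (adjusted p = 0.157) or replicate 1 of toyocamycin (adjusted p = 0.328). It stood at 22.5, 19.9 and 18.8 CPM and 3.65, 3.28 and 3.68 CPM at 72 h (log2 fold change -2.53, SE 0.19, edgeR adjusted p = 4.27e-09). KDM4C, of the same family, had 30.9, 34.3 and 38.03 CPM in DMSO and 57.7, 67.9 and 51.8 CPM on toyocamycin (log2 fold change 0.78, SE 0.14, edgeR adjusted p = 1.17e-04; -0.29 under mitochondrial scaling). KDM4D, a relative best known from testis, had 53 and 42 reads in DMSO and 9 and 13 reads on toyocamycin at 2 h (log2 fold change -2.06, SE 0.42, edgeR adjusted p = 0.00588). At 72 h it had 27, 20 and 11 reads in DMSO and 223, 258 and 233 reads on toyocamycin (log2 fold change 4.64, SE 0.29, edgeR adjusted p = 5.15e-10), a ratio of 25.2 with a 95% exact counting interval of 19.3 to 33.5 once scaled. Its neighbours and near copies KDM4E and KDM4F had 0 reads in every DMSO library and at most 9 on toyocamycin, and reads shared among such copies could not be told apart in the counts.

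KDM6A and KDM6B (also named UTX and JMJD3) remove methyl groups from H3K27 and so oppose PRC2. KDM6B had 39.8 and 29.6 CPM in DMSO and 14.98 and 9.35 CPM on toyocamycin at 2 h (log2 fold change -1.51, SE 0.24, edgeR adjusted p = 8.30e-04). At 10 h the DMSO library had 19.2 CPM and the toyocamycin libraries 38.3 and 11.3 CPM, on both sides of it. The single libraries of 24 h had 29.5 CPM in DMSO and 134 CPM on toyocamycin, and those of 48 h 64.3 and 666 CPM. These levels are scaled by TMM, and under mitochondrial scaling 0 members were past 2-fold higher at 24 h and 3 at 48 h. At 72 h, KDM6B had 45.2, 40.2 and 31.6 CPM in DMSO and 2089.8, 2599 and 2437 CPM on toyocamycin (log2 fold change 5.93, SE 0.22, edgeR adjusted p = 3.01e-12), the largest rise of any member but the low-count HDAC9. KDM6A was lower at 2 h, with 18.5 and 17.8 CPM in DMSO and 10.8 and 7.32 CPM on toyocamycin (log2 fold change -0.99, SE 0.21, edgeR adjusted p = 0.00654), and higher at 72 h, with 16.2, 15.5 and 21.1 CPM and 77.7, 72.4 and 79.2 CPM (log2 fold change 2.12, SE 0.17, edgeR adjusted p = 7.89e-09). The H3K9 and H3K27 demethylase KDM7A shared the early fall, from 72.6 and 108 CPM to 35.03 and 40.6 CPM (log2 fold change -1.26, SE 0.23, edgeR adjusted p = 0.00296), and was not called at 72 h (-0.05). KDM8 was at -0.79 at 2 h, without a call, and at 0.54 at 72 h (edgeR adjusted p = 0.0695), where library size alone gave -0.06 and mitochondrial scaling -0.56.

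The 3 class I HDACs of the rule, nuclear enzymes of the corepressor complexes, were all lower at 72 h, while their effects at 2 h were 0.13 for HDAC2, 0.23 for HDAC3 and 0.37 for HDAC8, short of a call (0 of 3 in edgeR, 0 with an unadjusted p under 0.05 and 0 by the DESeq2 Wald test). HDAC3, the enzyme of the NCoR and SMRT complexes, had 48.4, 50.01 and 52.04 CPM in DMSO and 8.97, 10.7 and 11.1 CPM on toyocamycin at 72 h (log2 fold change -2.29, SE 0.15, edgeR adjusted p = 8.06e-10). It was higher at 10 h (0.53, adjusted p = 0.0815), near 0 at 24 h (0.04) and past 2-fold lower at 48 h (-1.82). HDAC8 was at -1.76 with 8 to 15 reads on toyocamycin at 72 h, and HDAC2 at -0.94. The list holds 3 genes, and 41.9% of all genes were lower at 72 h.

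Class IIa HDACs shuttle between cytoplasm and nucleus. HDAC4 was the one called at 2 h, with 55.3 and 48.8 CPM in DMSO and 32.05 and 24.04 CPM on toyocamycin (log2 fold change -0.89, SE 0.17, edgeR adjusted p = 0.00405), and was still lower at 72 h (-0.82). HDAC7 was not called at 2 h (0.01), was at -1.70 at 10 h, and had 71.5, 66.96 and 49.6 CPM in DMSO and 5.03, 4.69 and 6.83 CPM on toyocamycin at 72 h (log2 fold change -3.50, SE 0.23, edgeR adjusted p = 8.29e-10). HDAC9 was all but silent in DMSO, with 0, 1 and 0 reads at 72 h, and had 22, 28 and 29 reads on toyocamycin (edgeR adjusted p = 9.59e-07). The scaled ratio of HDAC9 was 162, with a counting interval from 28.2 to 6469. HDAC5 was not called at 72 h (-0.18) after -1.50 at 10 h.

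Among the class IIb and IV enzymes, HDAC6, the cytoplasmic deacetylase of tubulin, showed the largest fall of all members. It had 21.3, 24.3 and 19.4 CPM in DMSO and 0.296, 0.187 and 1.23 CPM on toyocamycin at 72 h (log2 fold change -5.19, SE 0.34, edgeR adjusted p = 1.03e-09), from 435, 531 and 460 reads against 3, 2 and 14 reads. Its effect was 0.21 at 2 h and 0.41 at 10 h, neither called, and -1.64 and -2.44 in the single libraries of 24 and 48 h. HDAC11, the class IV enzyme, which removes long fatty acyl groups, was at -4.07 at 72 h (edgeR adjusted p = 1.14e-09). It had 305, 416 and 278 reads in DMSO and 12, 10 and 7 reads on toyocamycin. HDAC10, a polyamine deacetylase, had 3, 2 and 2 reads in DMSO and 8, 11 and 7 reads on toyocamycin (edgeR adjusted p = 0.00151), a scaled ratio of 7.61 with a counting interval of 3.22 to 20.8.

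SIRT1, a nuclear deacetylase of histones and p53, was lower at 2 h, with 54.3 and 65.01 CPM in DMSO and 26.98 and 28.5 CPM on toyocamycin (log2 fold change -1.10, SE 0.15, edgeR adjusted p = 2.38e-04). At 72 h it had 62.8, 56.4 and 64.6 CPM in DMSO and 468, 477 and 467 CPM on toyocamycin (log2 fold change 2.94, SE 0.13, edgeR adjusted p = 9.72e-12), and the single libraries of 48 h gave 0.98. SIRT2, the mostly cytosolic tubulin deacetylase, was not called at 2 h (0.16) or 10 h (0.15) and had 46.5, 47.4 and 39.5 CPM in DMSO and 1.58, 3.66 and 2.89 CPM on toyocamycin at 72 h (log2 fold change -4.03, SE 0.21, edgeR adjusted p = 8.15e-11). SIRT6, a chromatin deacetylase of telomeres and DNA repair, was higher at 72 h (2.45, adjusted p = 1.61e-08), and the nucleolar SIRT7 was not called (0.08). Of the mitochondrial sirtuins, SIRT5, a desuccinylase, had 5.67, 5.13 and 7.43 CPM in DMSO and 14.5, 16.6 and 13.2 CPM on toyocamycin (log2 fold change 1.28, SE 0.19, edgeR adjusted p = 1.01e-05; 0.22 under mitochondrial scaling), and SIRT3 was at -0.39. SIRT4 had 7, 18 and 7 reads in DMSO and 0, 2 and 2 on toyocamycin, 3.91 times more in DMSO once scaled, with a counting interval of 1.39 to 15.2 (edgeR adjusted p = 0.0430). Without replicate 2 of DMSO the adjusted p of SIRT4 was 0.183, and without replicate 1 of toyocamycin it was 0.145.

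**Figure D3:**
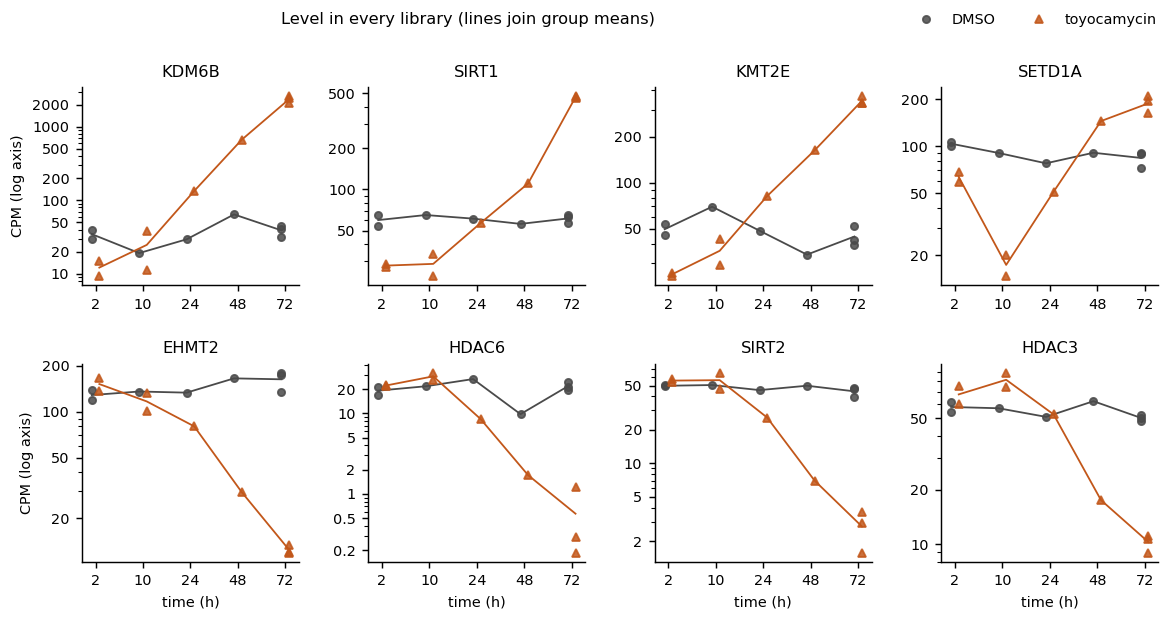
CPM of 8 members in every library (points, log axis; times in hours, evenly spaced) in DMSO and on toyocamycin, with lines through group means; the 10 h libraries were scaled in the 17-library fit and the others in the 14-library fit. KDM6B, SIRT1, KMT2E and SETD1A lie below DMSO at 2 h and above it at 72 h, while EHMT2, HDAC6, SIRT2 and HDAC3 stay close to DMSO at 2 h and fall from 24 or 48 h onward.

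Promoters are shown for the 2 largest rises and the 2 largest falls at 72 h among 18 called members with arms that did not overlap, at least 100 reads in a library and a printed window that touched no annotated exon. Each line is the 150 bases before the gene's start in RefSeq on GRCh38.p14, on the plus strand and 5′ to 3′, with GC boxes (GGGCGG or its complement CCGCCC) in capitals. They show how GC boxes are spread in members that moved in opposite directions.
KDM6B (chr17:7834067-7834216): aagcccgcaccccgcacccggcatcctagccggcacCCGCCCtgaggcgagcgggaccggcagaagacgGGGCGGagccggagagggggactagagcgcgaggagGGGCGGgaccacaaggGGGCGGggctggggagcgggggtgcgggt
SIRT1 (chr10:67884506-67884655): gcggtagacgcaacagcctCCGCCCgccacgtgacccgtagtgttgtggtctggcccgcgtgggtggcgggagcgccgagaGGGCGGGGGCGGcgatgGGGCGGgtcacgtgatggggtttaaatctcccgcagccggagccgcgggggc
KDM4A (chr1:43649999-43650148): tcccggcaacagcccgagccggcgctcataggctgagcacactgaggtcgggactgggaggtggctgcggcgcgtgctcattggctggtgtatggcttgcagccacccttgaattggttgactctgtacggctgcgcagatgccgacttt
NSD2 (chr4:1871243-1871392): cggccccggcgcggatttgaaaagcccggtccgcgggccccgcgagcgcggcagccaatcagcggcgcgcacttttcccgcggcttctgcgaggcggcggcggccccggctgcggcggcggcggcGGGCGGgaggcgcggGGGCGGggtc
KDM6B and SIRT1 have 4 GC boxes each in these windows (neighbouring ones in SIRT1 adjoin), NSD2 has 2 and KDM4A has 0.

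Over the 250 bases before the start, 69 members matched the RefSeq table, and 68.1% of them held a GC box on either strand, as did 65.2% of the 11589 tested genes in the table. A GC box stood in 10 of the 11 members that were lower at 2 h and higher at 72 h and in 62.2% of the 37 matched members lower at 72 h. The E-box CACGTG was in 15.9% of members and 8.53% of tested genes, the CCAAT box (CCAAT or ATTGG) in 33.3% and 34.8%, TATAAA or its complement in 1.45% and 6.39%, and the cAMP response element TGACGTCA in 1.45% and 2.70%. The median number of CpG dinucleotides was 24 in members and 20 in tested genes. These letters describe the windows alone.

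Of 19 pairs set by textbook paralogy, 7 were called in opposite directions at 72 h, 6 were both lower, 2 both higher, and 4 had 1 member without a call, in libraries where 41.9% of all genes were lower and 47.0% higher, so nothing particular to paralogs is read from the count. Opposite calls also depend on the scaling. Under mitochondrial scaling KDM2A, KDM4C and SUV39H2 turned negative, and SETD1A (0.06) and KMT5B (0.29) were not called in every scaling, which left the 2 pairs with the low-count HDAC9 and HDAC10 with opposite calls in all 4. The ratio of the counts of 2 paralogs within a library, by contrast, does not change with the scaling. The ratio of SETD1A to SETD1B lay between -0.09 and 0.12 on the log2 scale in the 3 DMSO libraries and between 2.86 and 2.96 in the 3 toyocamycin libraries. That of KDM2A to KDM2B lay between 0.10 and 0.33 in DMSO and between 2.85 and 3.41 on toyocamycin. In both pairs the ratio was lower on toyocamycin at 2 h, where the mean differed from that of DMSO by -0.54 and -0.86. These differences come from the same counts as the 2 h calls of SETD1A and KDM2A. Other opposite pairs did not turn: at 2 h KMT5B to KMT5C differed by 0.55, SUV39H1 to SUV39H2 by -0.26 and KDM4A to KDM4C by -0.73. Each of these had the same sign at 72 h.

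The ratio of KDM4A to KDM4C fell by 3.29 on the log2 scale at 72 h and that of SUV39H1 to SUV39H2 by 2.76, and the ratio of KMT5B to KMT5C was higher by 2.52. HDAC7 with HDAC9 and HDAC6 with HDAC10 also parted, but their second members had few reads. Pairs called in the same direction shifted as well, and the ratio of KDM6A to KDM6B lay between -1.48 and -0.58 in DMSO and between -5.17 and -4.75 on toyocamycin. With 3 libraries against 3, an exact permutation test of 1 ratio cannot go below a two-sided p of 0.10, so these ranges are given without a test.

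**Figure D4:**
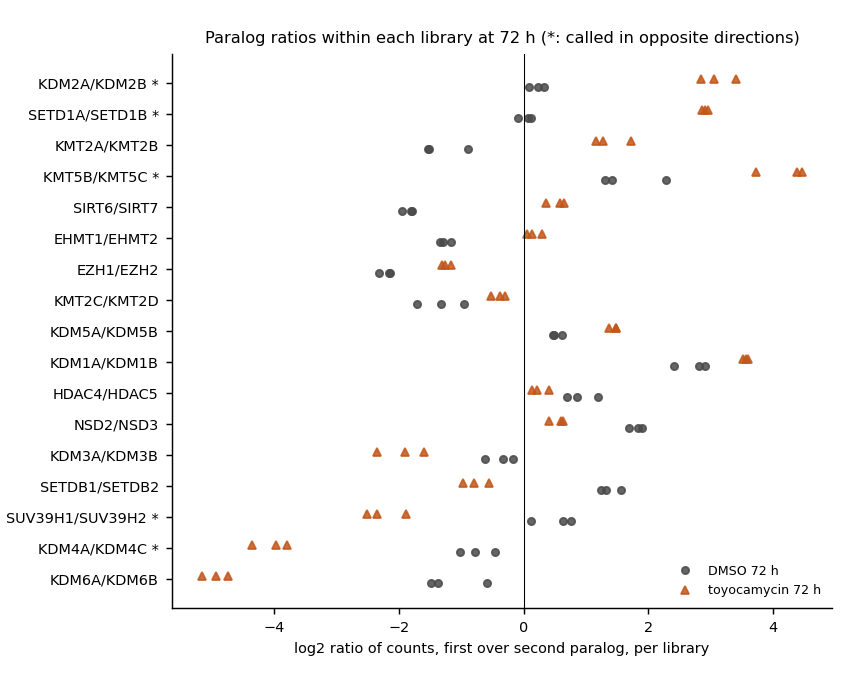
Log2 ratio of the counts of the first over the second paralog in each library at 72 h, for 17 pairs with reads in both members; points are the 3 DMSO and the 3 toyocamycin libraries, and a star marks pairs called in opposite directions under TMM scaling. In each of the 17 pairs drawn, starred or not, the toyocamycin points lie apart from the DMSO points. At 72 h, 41.9% of all genes were called lower and 47.0% higher. How often the ratios of other gene pairs part in this way was not computed, so nothing particular to paralogs is read from it.

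Per length of annotated exons, the order of the members changed. PRMT1 stood first in DMSO at 72 h, at 64.6 ± 5.46 CPM per kilobase (SD, n = 3), ahead of KDM5C at 33.3 ± 4.70 and HDAC2 at 26.2 ± 4.69. KDM6B was 36th at 5.28 ± 0.930 in DMSO and 1st at 321 ± 35.2 on toyocamycin, followed there by SIRT1 at 103 ± 1.16 (9th in DMSO) and SIRT6 at 37.4 ± 4.98 (26th in DMSO). EHMT2 went from 4th to 47th, and HDAC6 from 61st to last. These lengths are of all annotated exons joined, so a gene with many exons that are seldom used is placed low.

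The members lie on 20 chromosomes, with 5 members on X, and their genes span 2.34 to 915 kilobases. Gene length and log2 fold change had a Spearman correlation across genes of -0.19 at 2 h over 72 members and -0.09 over 14462 genes, and of 0.10 and -0.14 at 72 h. Genes are not independent replicates, and the points share the libraries. The members lower at 2 h had a median length of 84.0 kilobases, and the other tested members 44.8. In 14 members some exon overlaps that of a coding gene on the other strand, KMT2E, DOT1L, SETD6, SIRT2 and KDM2B among them. The strand setting of the counting is not stated, so their reads and those of the partner cannot be told apart there.

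Enzymes outside the rule that share complexes or cofactors with the members were also counted. For these lists too, 41.9% of all genes were lower and 47.0% higher at 72 h, and no list was tested as a set. HDAC1, the class I partner of HDAC2, had 164, 179.6 and 195 CPM in DMSO and 13.5, 16.7 and 15.5 CPM on toyocamycin at 72 h (log2 fold change -3.56, SE 0.15, edgeR adjusted p = 6.17e-12). At 10 h HDAC1 stood at 1.12 under TMM, against the lone DMSO library. Mitochondrial scaling moved the median of all genes at 10 h from 0.42 to -0.70, so such a rise depends on the scaling. Of 19 partners of HDAC complexes, 15 were lower and 3 higher at 72 h (12 and 4 by DESeq2's size factors), the largest change being that of MIDEAS, a scaffold of the mitotic deacetylase complex, from 94.9, 98.8 and 94.8 CPM to 1259, 1448 and 1486 CPM (log2 fold change 3.86, SE 0.17, edgeR adjusted p = 9.11e-12). Among 11 shared COMPASS subunits, 9 were lower and 2 higher (9 and 0 by library size), with ASH2L at 56.2, 62.3 and 63.4 CPM and 6.31, 8.06 and 7.88 CPM (log2 fold change -3.03, SE 0.15, edgeR adjusted p = 4.89e-11). The 7 tested accessory subunits of PRC2 were 2 lower and 5 higher (3 and 2 by library size), with JARID2, which guides PRC2 to chromatin, at 7.82, 8.89 and 9.50 CPM and 176, 179.9 and 180.3 CPM (log2 fold change 4.35, SE 0.16, edgeR adjusted p = 2.05e-12).

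All 6 genes listed with the S-adenosylmethionine cycle were lower at 72 h (5 were called by DESeq2's size factors). The list includes AHCYL1 and AHCYL2, which were placed there as relatives of the cycle enzyme AHCY. MAT2A, which makes S-adenosylmethionine, had 77.3, 85.6 and 100.3 CPM in DMSO and 31.2, 27.7 and 35.7 CPM on toyocamycin (log2 fold change -1.48, SE 0.14, edgeR adjusted p = 1.02e-07). AHCY, which clears the by-product S-adenosylhomocysteine, had 299, 319 and 279 CPM and 58.9, 55.03 and 54.1 CPM (log2 fold change -2.42, SE 0.12, edgeR adjusted p = 4.38e-11). At 10 h AHCY stood at 1.15 under TMM, with the limits given for HDAC1. Its relative AHCYL2 changed most, from 28.6, 29.4 and 31.95 CPM to 1.87, 1.31 and 3.77 CPM (log2 fold change -3.67, SE 0.27, edgeR adjusted p = 4.17e-09). Of 6 genes of NAD metabolism, 3 were lower and 3 higher (3 and 0 under mitochondrial scaling). They include the NAD kinase NADK and the low-count NMNAT2, with 6 to 16 reads in the libraries of 72 h. NADSYN1, the NAD synthetase, had 19.01, 18.8 and 17.6 CPM and 58.2, 66.00 and 60.5 CPM (log2 fold change 1.74, SE 0.13, edgeR adjusted p = 3.38e-09).

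Histone acetyltransferases, which counter the deacetylases, were 4 of 10 lower at 2 h, and 5 lower and 4 higher at 72 h (6 and 1 under mitochondrial scaling). KAT7, an acetyltransferase of H3K14, had 40.9, 45.7 and 47.7 CPM in DMSO and 9.17, 7.87 and 10.8 CPM on toyocamycin (log2 fold change -2.27, SE 0.16, edgeR adjusted p = 1.81e-09). CREBBP and EP300, named after their values were seen, were at -0.66 and -0.997 at 2 h and 2.07 and 1.53 at 72 h. Of the 8 tested methyltransferases outside the rule, 6 were lower and 2 higher at 72 h, with CARM1, an arginine methyltransferase, at 245, 228 and 167 CPM and 68.00, 84.9 and 91.3 CPM (log2 fold change -1.39, SE 0.18, edgeR adjusted p = 2.47e-06) and SMYD2, a lysine methyltransferase, at 32.7, 34.03 and 36.2 CPM and 2.27, 3.00 and 2.10 CPM (log2 fold change -3.80, SE 0.18, edgeR adjusted p = 2.09e-11). Among the HP1 proteins, readers of methylated H3K9, 2 of 3 were lower (1 lower and 1 higher by DESeq2's size factors), and CBX3 had 193, 194 and 242 CPM and 152, 121 and 133 CPM (log2 fold change -0.63, SE 0.19, edgeR adjusted p = 0.00551).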

How the data were processed

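RNA-seq libraries of YB5 cells on toyocamycin (9) or DMSO (8) were grouped by the deposited labels. Reads were mapped by the authors with STAR 2.7.5a against GRCh38, and its whole-number gene counts were deposited, with the strand setting not given in the sources used here. Their second table, of edgeR log2 fold changes and p-values per time, was not used, and neither was 1 count column with no matching sample.

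Symbols and positions came from the annotation of the same build supplied for the analysis, which named 19080 of 19141 genes. Counts were filtered with filterByExpr, scaled with TMM and tested with the quasi-likelihood test of edgeR (version 4.0.16, legacy form, which earlier releases used), one mean per group, at a Benjamini-Hochberg adjusted p under 0.1, under R 4.3.3. The steps were tested on simulated data. Effects at 2 h and 72 h came from 14 libraries and those at 10 h from all 17, and CPM levels use the same fits. At 24 and 48 h, log2 ratios of CPM used a prior count of 2. Other choices tried were DESeq2 1.42.0, edgeR's current test, other scalings, filters and thresholds, a batch term, a replicate block and leaving out each replicate.

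Values in every library are given for members called at 2 h, for the largest rise and fall of each role list at 72 h among those whose arms did not overlap, for paralogs called in opposite directions and for members whose direction turned. Of the partner lists, HDAC1, CARM1, MAT2A and AHCY were given, with the largest change of each list. The members, lists and rules were chosen with earlier results of these data known. The paper calls its samples biological repeats, but no source describes whether each was a separate culture. The p-values therefore measure the spread between these samples, part of which may be technical. Counting intervals cover counting error only. Replicate numbers at 2 h coincide with the batch in the labels, and same-numbered libraries deviated together there (r = 0.34). At 72 h the correlations were -0.13, 0.06 and -0.12, so the numbers were not taken as pairs.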

Additional observations from a re-analysis of the deposited data

Results flagged for a closer look

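In 60 members, the effect of toyocamycin at 72 h differed from that at 2 h by a test of the difference itself (edgeR quasi-likelihood test, adjusted p under 0.1). Of the 72 tested members the effect was lower in 33 and higher in 27, against 38.1% and 38.0% of all genes. Most genes thus differed as well. Mitochondrial scaling left 34 lower and 8 higher members, against 5862 and 2810 of 14491 genes. The values are the log2 effect at 72 h minus that at 2 h. Among the histone lysine methyltransferases, the differences were -2.63 for KMT2B, -1.73 for KMT2D, -1.55 for SETD1B, -0.67 for KMT2C, -0.67 for SETD7, 1.87 for SETD1A and 3.92 for KMT2E for H3K4, -3.95 for EHMT2, -2.26 for EHMT1, -1.77 for SUV39H1, 0.69 for SETDB1, 0.74 for SUV39H2 and 2.80 for SETDB2 for H3K9, -1.46 for EZH2 and -0.60 for EED in PRC2, -2.33 for NSD2, -1.27 for NSD3, 1.49 for SETD2 and 1.58 for NSD1 for H3K36 and 1.75 for KMT5B and 2.10 for DOT1L for H3K79 and H4K20. They were -2.85 for PRMT2, -1.34 for PRMT1, -1.32 for PRMT5, 1.63 for PRMT3, 1.99 for PRMT6 and 2.08 for PRMT9 among arginine methyltransferases and -1.41 for SETD6, -1.27 for SETD9, -1.16 for SETD3, 1.74 for SETD5 and 3.08 for SETD4 among the other SET domain proteins. Among the demethylases, they were -2.77 for KDM1B, -2.01 for KDM1A, 1.17 for KDM5B and 1.77 for KDM5A for H3K4, -1.86 for KDM2B, -1.82 for KDM4A, -1.57 for KDM3A, -1.25 for KDM4B, -1.07 for KDM3B, 0.77 for KDM4C, 1.86 for KDM2A and 6.69 for KDM4D for H3K9 and H3K36, and 1.20 for KDM7A, 1.33 for KDM8, 3.11 for KDM6A and 7.43 for KDM6B for H3K27 and other targets. Deacetylases gave -2.52 for HDAC3, -2.13 for HDAC8 and -1.07 for HDAC2 in class I, -3.51 for HDAC7 in class IIa, and -5.40 for HDAC6, -4.36 for HDAC11 and 3.07 for HDAC10 in classes IIb and IV. Among the sirtuins, the differences were -4.18 for SIRT2, 2.45 for SIRT6 and 4.04 for SIRT1 in nucleus and cytosol and -0.53 for SIRT3 and 1.07 for SIRT5 in mitochondria. Both effects come from their own DMSO libraries.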

How the results depend on the processing

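Of the 942 checks on single members (58 results under other settings), 876 kept direction and side of the threshold, 58 kept the direction alone and 8 reversed. The settings differed: mitochondrial scaling left 29 results the same, 22 with the direction alone and 7 reversed. A minimum fold change of 1.5 left 44 the same and 14 with the direction alone. The reversals were all at 72 h: under mitochondrial scaling the log2 fold change became -0.20 for SETD2, -0.26 for NSD1, -0.11 for SETD5, -0.042 for KDM5A, -0.28 for KDM2A, -0.53 for SUV39H2 and -0.29 for KDM4C, and by library size alone -0.10 for SUV39H2. By construction these scalings move all genes together.

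Mitochondrial scaling left 1 member lower at 2 h, 1 higher at 10 h, 11 higher at 72 h and 8 with a higher effect at 72 h than at 2 h. It gave 65 lower and 0 higher at 24 h and 56 lower and 3 higher at 48 h, and in DMSO 0 lower and 1 higher. Library size alone gave 2 higher at 10 h, 50 lower and 2 higher at 24 h, 7 higher at 48 h, and in DMSO 12 lower and 3 higher. Under it the median of all genes was -0.84 at 24 h and -0.39 at 48 h. A minimum fold change of 1.5 gave 6 lower at 2 h, 2 higher at 10 h and 0 in either direction in DMSO. At an adjusted p under 0.05, 2 were higher at 10 h, and in DMSO 2 were lower and 6 higher. A fit of the libraries of 2 and 10 h alone gave 2 higher at 10 h. For DMSO, all 17 libraries gave 2 lower and 4 higher, the batch term 4 higher and the DESeq2 Wald test 3 lower.

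Leaving out 1 library gave 16 to 19 lower members at 2 h, 36 to 39 lower and 24 to 25 higher at 72 h, and in DMSO 1 to 6 lower and 5 to 10 higher. With the replicate block, 20 members were lower and 0 higher at 2 h, 39 and 26 at 72 h, 34 and 27 in the difference of effects, and 49 and 4 at 10 h. Where not stated, the cause of a change was not tested. Protein identity between paralogs was planned and not run. With 2 or 3 libraries an arm, and 1 at 24 and 48 h, values of members near 10 reads a library are uncertain. Counting intervals were computed for HDAC9, HDAC10, SIRT4 and KDM4D alone. HDAC6, HDAC8 and HDAC11 also had few reads on toyocamycin at 72 h and were given no interval.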
